A study of Mus musculus with 6 samples.

Results

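The interleukin-1 family is the subject here, read as 10 of its transcripts in mouse neutrophils cultured with DKK1 or without it. The 10 genes were Il1a, Il1b, Il1rn, Il36g and Il18 for the ligands and the natural antagonist, Il18bp for a soluble binding protein, and Il1r1, Il1r2, Il1rap and Il18rap for the receptor chains. They were taken by gene name from the deposited table, where all 10 were found among 56884 genes. RNA sequencing was done on 3 libraries of cells cultured with DKK1 (Dickkopf-1, which is secreted and blocks Wnt signals) and on 3 libraries cultured without it, called control below. The cells of both groups were labelled as CD101+ Ly6G+ mature neutrophils from mouse bone marrow, so the controls were sorted and cultured as well. The sources used here do not give the dose of DKK1, the time in culture, the strain, age and sex of the mice, or whether each library had its own animal or culture. The p-values below therefore rest on the spread between these libraries alone, and that spread may be technical.

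Interleukin-1 alpha and interleukin-1 beta are the agonists of the family and bind the same receptor, IL-1R1, which signals once the accessory chain IL-1RAP joins it. The receptor antagonist encoded by Il1rn occupies IL-1R1 without bringing in that chain, and IL-1R2 binds the agonists without signalling, as a decoy. Neutrophils are a known source of interleukin-1 beta, which is made as an inactive precursor and cut before or at release, whereas the precursor of interleukin-1 alpha is already active. Interleukin-18 is cut in the same way, acts on IL-18R1 with the accessory chain encoded by Il18rap, and is held back by the binding protein encoded by Il18bp.

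The libraries held 8749228, 5188116 and 8044847 reads with DKK1 and 8901520, 8688911 and 9851961 reads in control, recovered from the normalized counts. The label was checked against transcripts that define neutrophils, and the DKK1 libraries went against it. Cd101, the surface protein used in the sort, averaged 3.53 ± 2.31 normalized counts with DKK1 and 5098 ± 178 in control (SD, n = 3 each). Ly6g, the other sorting marker, averaged 5.96 ± 1.30 with DKK1 and 1338 ± 72.7 in control. Of 12 neutrophil identity transcripts, 11 fell and Camp, at 517 with DKK1 and 534 in control, did not pass the test, and the summed level of the list was 3415 to 3858 with DKK1 and 691378 to 716974 in control. The 15 monocyte and macrophage transcripts summed to 17679 to 18726 with DKK1 and 8276 to 8457 in control. Of these, 5 were higher and 8 lower, with C1qa at 0 in every DKK1 library. Cd68 alone, at 10121 with DKK1 and 902 in control, made up most of the difference between the sums. Also higher were Adgre1 (2828 with DKK1 and 1106 in control), Cd14 (2645 and 550), Ms4a7 (236 and 1.76) and Cx3cr1 (40.4 and 6.35). Among the 8 lower, Ly6c2 averaged 30.1 with DKK1 and 2504 in control, and Mrc1 5.49 with DKK1 and 45.9 in control. Dendritic cell genes summed to 190 to 285 with DKK1 and 165 to 193 in control (3 of 7 tested rose and 1 fell, with Siglech and Cd209a at 0 with DKK1). Basophil, mast cell and eosinophil genes summed to 433 to 492 with DKK1 and 388 to 417 in control (5 of 11 rose and 3 fell). In this list Kit rose to 251.5 with DKK1, against 32.9 in control, and Siglecf fell to 1.20 with DKK1, against 292 in control. Stromal and endothelial genes summed to 258 to 368 with DKK1 and 382 to 462 in control (3 of 7 tested rose and 3 fell, with Pdgfra and Cdh5 at 0 with DKK1). B cell genes summed to 41.2 to 112 with DKK1 and 1484 to 1604 in control (6 of 7 fell). T and NK cell genes summed to 1.37 to 5.96 with DKK1 and 56.2 to 90.05 in control (3 of 4 tested fell), and erythroid genes to 300.5 to 1496 with DKK1 and 1592 to 1738 in control (4 of 6 tested fell). Cd3d, at 0.497 with DKK1 and 58.1 in control, made up most of the T and NK cell sum in control. Cd3e, Trac and Ncr1 were at 0 in every control library. The part of these shifts in the results below was not tested, and bulk RNA cannot tell fewer cells of a type from less RNA per cell. DKK1 library 2, the shallowest, stood apart from the other 2 of its group, with a chi-square per degree of freedom of 13.6 and 12.5 on recovered reads, against 2.99 between DKK1 libraries 1 and 3 and 2.19 to 2.26 between control libraries.

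The genes for the 2 agonists lie next to each other on mouse chromosome 2 and changed in opposite directions, while the antagonist gene on the same chromosome rose. Their promoter windows, from 250 bases before to 50 after the start of the transcript, are printed for that reason (RefSeq, GRCm38.p6, 5′ to 3′ on the strand of the gene). Capitals mark the matches, searched on both strands, to the core of an ETS site (GAGGAA). They also mark matches to a TATA box, the place where transcription is set up (TATAAA). The remaining capitals mark an AP-1 element, bound by Fos and Jun (TGANTCA).
Il1a, chr2:129309923-129310222, minus strand: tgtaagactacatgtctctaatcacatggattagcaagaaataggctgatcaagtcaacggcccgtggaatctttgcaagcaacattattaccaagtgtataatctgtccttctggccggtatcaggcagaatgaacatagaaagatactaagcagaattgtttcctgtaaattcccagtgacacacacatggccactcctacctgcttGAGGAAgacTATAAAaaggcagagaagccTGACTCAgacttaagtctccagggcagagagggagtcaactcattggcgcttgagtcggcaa
Il1b, chr2:129371090-129371389, minus strand: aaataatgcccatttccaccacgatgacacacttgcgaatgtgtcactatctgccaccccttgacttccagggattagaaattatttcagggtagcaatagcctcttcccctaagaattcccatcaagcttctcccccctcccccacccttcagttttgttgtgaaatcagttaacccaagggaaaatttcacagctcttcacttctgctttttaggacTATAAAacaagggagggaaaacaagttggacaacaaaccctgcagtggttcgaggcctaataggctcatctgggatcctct
Il1rn, chr2:24336610-24336909, plus strand: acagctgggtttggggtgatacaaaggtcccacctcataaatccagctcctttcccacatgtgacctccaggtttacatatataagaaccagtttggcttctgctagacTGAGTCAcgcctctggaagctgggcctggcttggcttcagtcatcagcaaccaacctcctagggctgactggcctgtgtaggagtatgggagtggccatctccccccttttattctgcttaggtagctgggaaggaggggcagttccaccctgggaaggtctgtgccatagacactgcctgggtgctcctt

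Both agonist windows held a TATA box, starting at -32 in Il1a and at -31 in Il1b relative to the start of the transcript. The Il1a window also held an ETS core at -41 and an AP-1 element at -12, and the printed Il1rn window held an AP-1 element at -141. Which of the Il1rn starts gave its reads was not tested. Of 32851 mouse promoter windows of the same length, 13.6% held the TATA box, 28.3% the ETS core and 7.81% the AP-1 element. A further 4 motifs were searched, namely the C/EBP element (TTGCNNAA) in 10.8% of windows, the cyclic AMP response element (TGACGTCA) in 1.79%, the NRF2 element (TGACNNNGC) in 12.4% and the NF-kappaB motif in 8.46%. None of these 4 had its letters in the 3 windows printed. Elsewhere among the 10 genes, a C/EBP match lay at -49 in Il18bp and at -133 in Il1r1, and ETS cores lay at -94 and -79 in Il18rap and at -104 in Il36g. A second window of Il1r1 held an NF-kappaB match at -232, the Il18 window held a TATA box on the other strand at -175, and of 2 further Il1rn windows 1 held a TATA box on the other strand at 14 and the other held no match. These are matches of letters, not measured binding.

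Il1a, the agonist active in its uncut form, rose with DKK1 and was close to the limit of detection in control. Its normalized counts were 1570, 3173 and 1713 in DKK1 libraries 1 to 3, against 3.29, 2.23 and 3.94 in control libraries 1 to 3. All 3 DKK1 libraries stood far above every control library, and DKK1 library 2 was the highest. The mean was 2152 ± 887 with DKK1 and 3.16 ± 0.862 in control (SD, n = 3 each), 682-fold higher, and 520-fold higher without DKK1 library 2. On the log2(normalized count + 1) scale the change was 8.96 (SE 0.28, adjusted p = 6.06e-09, limma), and 23 of the 16265 genes tested had a larger rise. The control level rested on 9 reads over 3 libraries, against 6514 reads with DKK1, and its 95% exact counting interval was 1.46 to 6.06, for counting error only. Il1a (ENSMUSG00000027399.2) spans 129299610 to 129309972 of chromosome 2 on the minus strand, with 7 exons in its longest coding transcript (GENCODE M21, GRCm38). Gm14023 overlaps it on the opposite strand and averaged 48.0 with DKK1 and 11.3 in control.

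Il1b, the agonist that neutrophils are best known for, fell. Its normalized counts were 435, 738 and 490 with DKK1, against 22771, 22261 and 22434 in control. The groups were far apart, and DKK1 library 2 was again the highest of its group. The mean was 554 ± 161 with DKK1 and 22489 ± 260 in control, 40.6-fold lower, with a log2 change of -5.38 (SE 0.16, adjusted p = 5.40e-09). Per kb of transcript, Il1b stood at rank 847 to 1357 of 15700 genes in the DKK1 libraries and at rank 17 in each control library. Il1b (ENSMUSG00000027398.14) spans 129364570 to 129371139 of chromosome 2 on the minus strand and has 7 exons, and an antisense transcript, Il1bos, overlaps it. The strandedness of the libraries is not given, so reads of a gene and of an overlapping gene on the other strand cannot be told apart. Il1bos had 2.98, 6.87 and 5.72 normalized counts with DKK1, against 210, 191 and 206 in control.

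**Figure D1:**
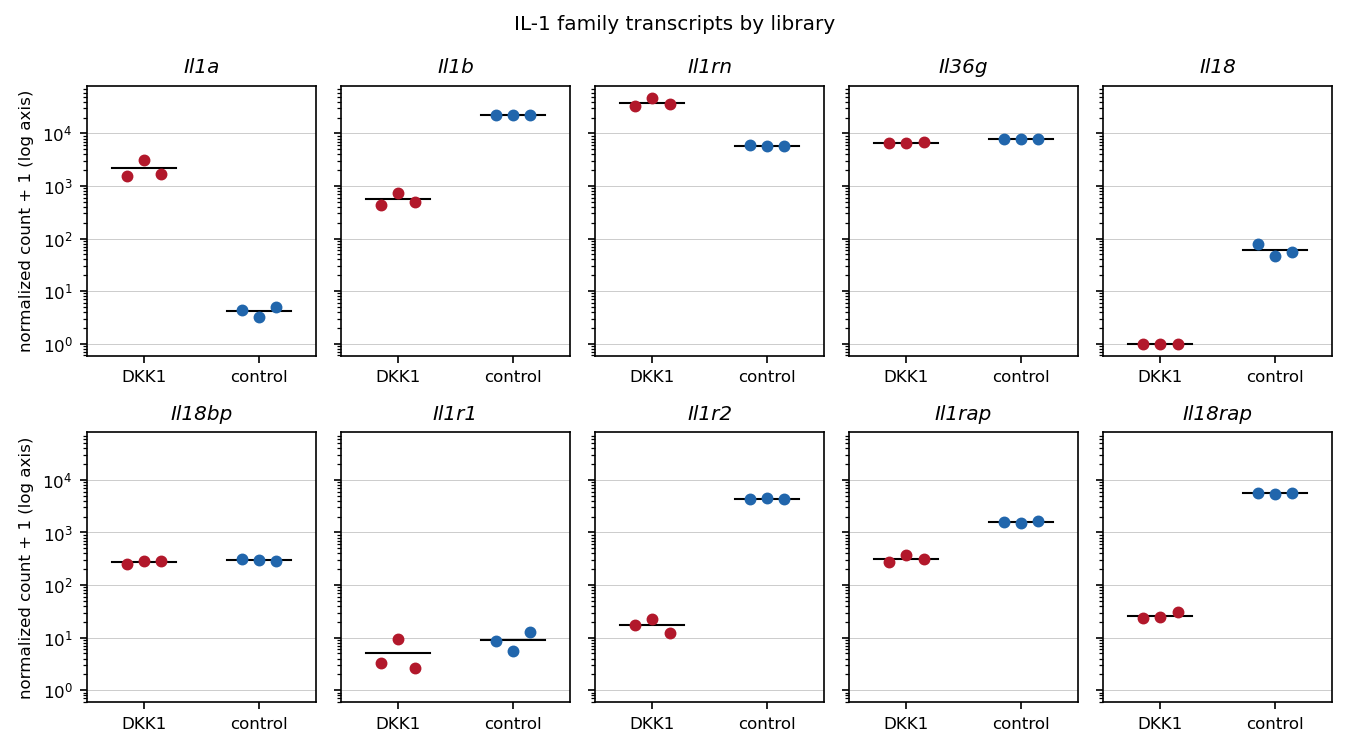
Normalized count + 1 (log axis) of each of the 10 transcripts in the 3 DKK1 libraries and the 3 control libraries, with 1 point per library and a bar at the mean. Il1a and Il1rn lie higher with DKK1, Il1b, Il18, Il1r2, Il1rap and Il18rap lie lower, and the points of Il1r1 overlap between the groups.

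The make-up of the agonist transcripts thus differed between the groups. Per kb of transcript, Il1a was 71.2, 74.7 and 70.6% of the sum of Il1a and Il1b with DKK1, against 0.00994, 0.00689 and 0.0121% in control. The sum itself was 1116, 2151 and 1229 normalized counts per kb with DKK1, against 16795, 16417 and 16546 in control, 11.1-fold lower. All 3 DKK1 libraries were below every control library in the sum and above every one in the Il1a share.

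The 3′ untranslated regions of both agonists carry AU-rich pentamers (ATTTA), a letter run known from RNAs that decay fast and bound by the proteins of the Zfp36 family. The densest 30 bases of each region are printed, with the pentamers in capitals.
Il1a, chr2:129300109-129300138, minus strand: attttatctatgtATTTAtaaatatATTTA
Il1b, chr2:129364808-129364837, minus strand: caaccacttacctATTTATTTAtgtATTTA

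The whole region held 4 pentamers in 459 bases in Il1b and 3 in 1101 bases in Il1a, against 0 in 1864 bases in Il1rn and 0 in 772 bases in Il36g. Over 20732 mouse genes, 65.4% had at least 1 pentamer, 35.7% had at least as many as Il1a and 27.9% at least as many as Il1b. Il1rap and Il1r1 held 8 each in longer regions, and Il1r2, with a region of 24 bases, held 0. Both agonists carry the run, at 2.72 per kb in Il1a and 8.71 per kb in Il1b. Whether it bears on their levels was not tested.

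Il1rn, which encodes the receptor antagonist, rose. It had 33612, 46672 and 35714 normalized counts with DKK1, against 5992, 5855 and 5736 in control. The groups did not overlap, and DKK1 library 2 was the highest. The mean was 38666 ± 7010 with DKK1 and 5861 ± 128 in control, 6.60-fold higher, with a log2 change of 2.71 (SE 0.11, adjusted p = 2.27e-08). Per kb, Il1rn stood at rank 12, 9 and 12 of 15700 genes in the DKK1 libraries, against rank 232 to 248 in control. It lies at 24336853 to 24351494 of chromosome 2 on the plus strand, with 5 exons (ENSMUSG00000026981.16).

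Set against the sum of the 2 agonist transcripts per kb, Il1rn was 12.2, 8.77 and 11.7 times that sum with DKK1, against 0.144, 0.144 and 0.140 times in control. The antagonist transcript was thus above the agonists in every DKK1 library and below them in every control library. The mean ratio was 10.9 ± 1.85 with DKK1 and 0.143 ± 0.00234 in control (SD, n = 3 each), given as a description with no test. Being a ratio within a library, it does not move with the scaling of the libraries. With no correction for transcript length it was 15 with DKK1 and 0.261 in control.

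**Figure D2:**
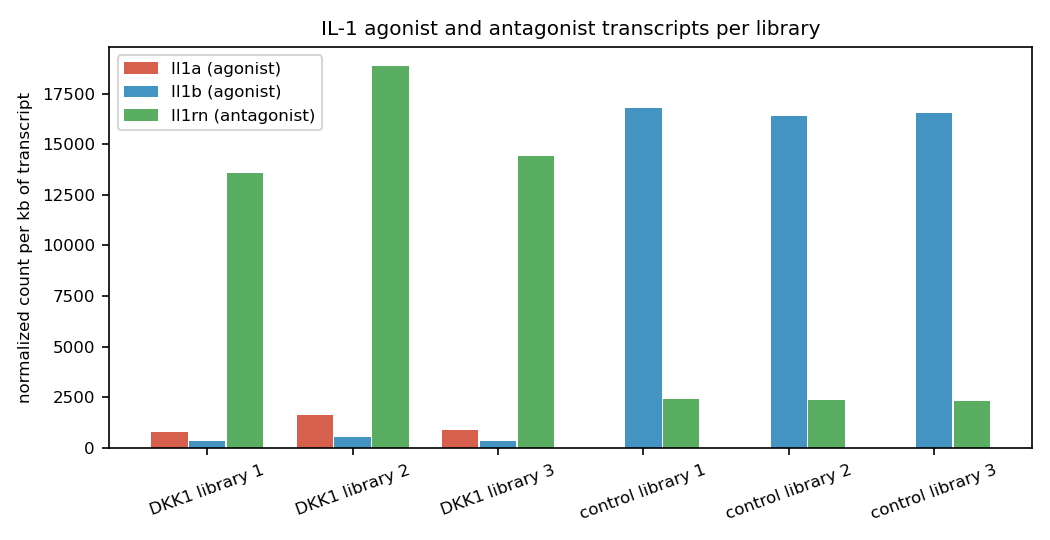
Normalized count per kb of the longest coding transcript for the agonists Il1a and Il1b and the antagonist Il1rn in each library, DKK1 libraries at the left and control libraries at the right. Il1rn is the tallest bar in all 3 DKK1 libraries and Il1b in all 3 control libraries, where Il1a (1.13 to 2.00 per kb) is too low to be seen.

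Il36g, an agonist of the separate interleukin-36 receptor, was high in both groups and differed little. It had 6649, 6511 and 6923 normalized counts with DKK1, against 7976, 7888 and 7722 in control. The groups did not overlap, and no library stood apart. The mean was 6694 ± 210 with DKK1 and 7862 ± 129 in control, 1.17-fold lower, with a log2 change of -0.23 (SE 0.05, adjusted p = 0.00154), but with libraries scaled to equal totals it was higher with DKK1, by 0.30 (adjusted p = 0.00101). That scaling moved the median change of all genes by 0.51 on the log2 scale, since the summed normalized counts averaged 6738824 with DKK1 and 9729307 in control. Per kb, Il36g was second among the 10 genes in both groups, at 4062 with DKK1 and 4771 in control. The gene (ENSMUSG00000044103.5) lies at 24186476 to 24193568 of chromosome 2 on the plus strand and has 5 exons.

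Il18 was not detected with DKK1. Its normalized counts were 0, 0 and 0 with DKK1, against 76.9, 45.8 and 54.2 in control. Over the 3 libraries of a group this was 0 reads with DKK1 and 166 in control. A floor of 3 reads over the 3 DKK1 libraries corresponds to a mean of 0.911 normalized counts, so the control mean of 58.95 ± 16.1 makes Il18 at least 64.7-fold lower with DKK1 (log2 change -5.87, SE 0.41, adjusted p = 1.21e-06). The size of that log2 change depends on the pseudocount, at -9.17 with 0.1 and -2.76 with 10. Il18 (ENSMUSG00000039217.14) lies at 50554827 to 50581840 of chromosome 9 on the plus strand, with 6 exons, and overlaps Tex12 and Bco2 on the other strand, which averaged 0 and 0.272 with DKK1 and 3.64 and 16.2 in control.

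Il18bp, the soluble inhibitor of interleukin-18, had 253, 284 and 283 normalized counts with DKK1, against 312, 300.5 and 292 in control. The highest DKK1 library lay just below the lowest control library. The mean was 273 ± 17.4 with DKK1 and 301 ± 10.2 in control, a log2 change of -0.14 that did not pass the test (SE 0.10, adjusted p = 0.212), and with equal totals the change was 0.39 (adjusted p = 0.00513), the other way. Il18bp (ENSMUSG00000070427.5) lies at 102014885 to 102018690 of chromosome 7 on the minus strand, with 4 exons, and overlaps Numa1 on the opposite strand, which averaged 1012 with DKK1 and 1321 in control.

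Il1r2, the decoy receptor, fell. It had 16.4, 21.98 and 11.4 normalized counts with DKK1, against 4377, 4550 and 4343 in control. The groups were apart by more than 2 orders of magnitude, with DKK1 library 2 the highest of its group. The mean was 16.6 ± 5.28 with DKK1 and 4423 ± 111 in control, 266-fold lower, with a log2 change of -8.02 (SE 0.19, adjusted p = 1.10e-09). Among all genes tested, 80 fell further. Il1r2 (ENSMUSG00000026073.14) lies at 40074079 to 40125231 of chromosome 1 on the plus strand and has 9 exons. Within the gene, the annotation places Gm37347, an unconfirmed transcript on the same strand, which averaged 0.248 with DKK1 and 2735 in control, and an antisense transcript, Gm16894, at 0 with DKK1 and 26.1 in control.

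Il1r1, the signalling receptor, was close to the limit of detection in both groups. It had 2.24, 8.24 and 1.63 normalized counts with DKK1, against 7.69, 4.47 and 11.8 in control, from 11 reads with DKK1 and 23 in control. The groups overlapped, since DKK1 library 2 lay above control libraries 1 and 2. The mean was 4.04 ± 3.65 with DKK1 and 7.99 ± 3.69 in control, and the log2 change of -0.98 did not pass the test (SE 0.60, adjusted p = 0.173). Without DKK1 library 2 it passed, at -1.54 (adjusted p = 0.034), over a range of 0.034 to 0.422 across all alternatives. Il1r1 (ENSMUSG00000026072.13) lies at 40225080 to 40317257 of chromosome 1 on the plus strand and has 11 exons. Gm38070, an unconfirmed transcript, overlaps it on the same strand and averaged 1.685 with DKK1 and 0 in control.

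Il1rap, the accessory chain shared by the interleukin-1, interleukin-33 and interleukin-36 receptors, fell. It had 268, 376 and 309 normalized counts with DKK1, against 1566, 1516 and 1685 in control. The groups did not overlap. The mean was 318 ± 54.5 with DKK1 and 1589 ± 86.7 in control, 5.00-fold lower, with a log2 change of -2.33 (SE 0.12, adjusted p = 1.40e-07). Il1rap (ENSMUSG00000022514.15) lies at 26581704 to 26730117 of chromosome 16 on the plus strand and has 11 exons. An antisense transcript, Gm20319, overlaps it and averaged 16.2 with DKK1 and 64.2 in control.

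Il18rap, the accessory chain of the interleukin-18 receptor, fell as well. It had 22.4, 23.4 and 29.4 normalized counts with DKK1, against 5666, 5488 and 5668 in control. The groups were far apart, and here DKK1 library 3 was the highest of its group. The mean was 25.04 ± 3.81 with DKK1 and 5608 ± 103 in control, 224-fold lower, with a log2 change of -7.76 (SE 0.11, adjusted p = 8.03e-11). Among all genes tested, 97 fell further. Il18rap (ENSMUSG00000026068.12) lies at 40515362 to 40551705 of chromosome 1 on the plus strand and has 13 exons.

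Relative to each other, the receptor chains changed unequally. Per kb, Il1r2 was 30.1, 10.9 and 28.7 times Il1r1 with DKK1, against 2340, 4180 and 1510 times in control. Il1r1 rested on few reads in both groups (11 with DKK1 and 23 in control), and Il1r2 on 52 reads with DKK1. Il1rap was 5.14, 5.38 and 8.5 times Il1r2 with DKK1, against 0.112, 0.105 and 0.122 times in control. The accessory chain was thus above the decoy in every DKK1 library and below it in every control library.

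Counted together, 2 of the 10 transcripts rose (Il1a and Il1rn), 6 fell (Il1b, Il36g, Il18, Il1r2, Il1rap and Il18rap) and 2 did not pass the test (Il18bp and Il1r1). Over all 16265 genes tested, 35.1% were called higher, 36.1% lower and 71.2% in either direction, and the libraries of the groups did not overlap for 73.9%. The 8 of 10 transcripts called, and the 9 of 10 whose groups did not overlap, are thus close to what the table as a whole shows. The median change was -1.66 over the 10 and -0.03 over all genes. With equal totals, 4 of the 10 were higher and 5 lower, and over all genes 7098 were higher and 4742 lower in place of 5709 and 5873.

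**Figure D3:**
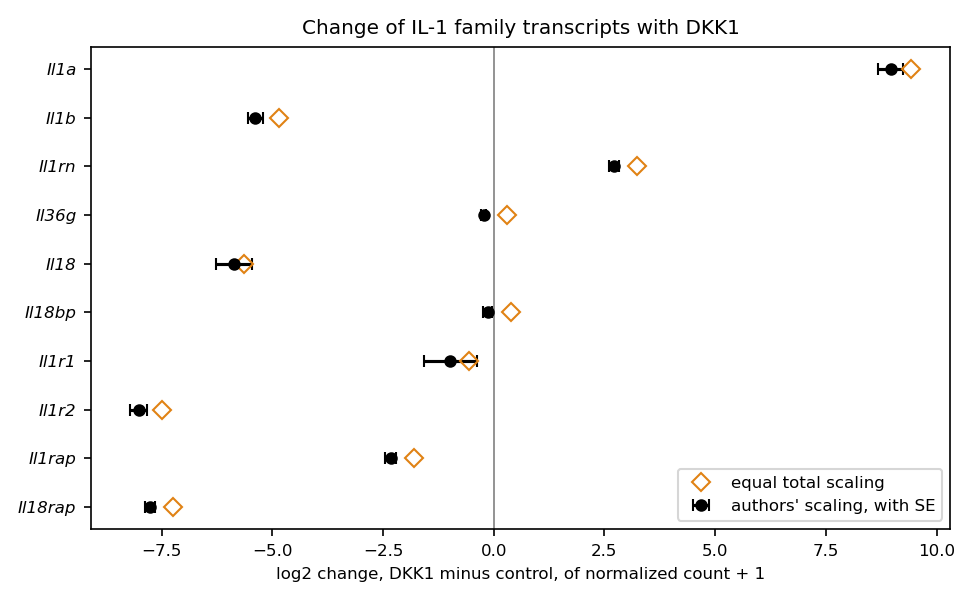
Log2 change of normalized count + 1, DKK1 minus control, for the 10 transcripts, as filled circles with SE bars on the authors' scaling and as open diamonds with the libraries scaled to equal totals. Il36g (-0.23 and 0.30) and Il18bp (-0.14 and 0.39) lie on different sides of 0 under the 2 scalings, and the other 8 keep their side.

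The order of the levels, compared per kb of transcript, also differed between the groups. With DKK1 it ran from Il1rn at 15629 through Il36g at 4062, Il1a at 1090, Il1b at 409, Il18bp at 105, Il1rap at 70.4, Il1r2 at 11.7, Il18rap at 5.12 and Il1r1 at 0.694 to Il18 at 0. In control it ran from Il1b at 16585 through Il36g at 4771, Il1r2 at 3117, Il1rn at 2369, Il18rap at 1147, Il1rap at 351.5, Il18bp at 116, Il18 at 66.6 and Il1a at 1.60 to Il1r1 at 1.37. Neighbours in each order did not overlap between libraries, apart from Il1a and Il1r1 in control. DKK1 library 2 was the highest of its group for 7 of the 10 transcripts and for 46.9% of the 6255 tested genes that averaged at least 100 with DKK1. Its level over the mean of DKK1 libraries 1 and 3 was 4.26 for Il1r1, 1.93 for Il1a, 1.59 for Il1b, 1.58 for Il1r2, 1.35 for Il1rn, 1.30 for Il1rap, 1.06 for Il18bp, 0.959 for Il36g and 0.902 for Il18rap, and 1.03 in the median over those genes; the log2 changes and the counts of calls were recomputed without it.

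The family genes not among the 10 add the rest of the interleukin-36 ligands and the other receptors. Il36a, an interleukin-36 agonist, had 22.4, 38.5 and 11.4 normalized counts with DKK1, against 0 in all 3 control libraries, at least 22.6-fold higher over a floor of 3 reads (log2 change 4.49, SE 0.53, adjusted p = 5.02e-05). Il36rn, the antagonist of the interleukin-36 receptor, had 2.98, 9.62 and 6.53 with DKK1, against 0 in control, from 19 reads with DKK1 and 0 in control (log2 change 2.77, SE 0.52, adjusted p = 0.00109). Both rose, but the sizes of these log2 changes depend on the pseudocount, at 7.75 with 0.1 and 1.69 with 10 for Il36a and at 5.87 and 0.69 for Il36rn, while Il33, Il1f10 and Il36b were too low to test. Il18r1, the ligand-binding chain of the interleukin-18 receptor, had 4.47, 4.12 and 4.90 with DKK1, against 373, 311 and 338 in control, 75.7-fold lower (adjusted p = 1.12e-08). Il1rl2, the interleukin-36 receptor, rose to 10.4, 28.9 and 28.6 with DKK1, against 8.79, 2.23 and 3.94 in control (log2 change 2.00, adjusted p = 0.0103). Il1rl1, the interleukin-33 receptor, had 36.5, 9.62 and 24.5 with DKK1, against 48.3, 44.7 and 44.3 in control, and the call of its log2 change of -1.11 (adjusted p = 0.0433) was lost with a pseudocount of 0.1, with equal totals (-0.60, adjusted p = 0.267) and without any library other than DKK1 library 1 (adjusted p = 0.0646 to 0.113, and -0.60 without DKK1 library 2). Sigirr, Il1rapl1 and Il1rapl2 were too low to test.

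These genes lie in clusters, where some neighbours changed in the same direction and others in opposite directions. The receptor cluster covers 478 kb of chromosome 1 (40074079 to 40551705, plus strand) and holds Il1r2, Il1r1, Il1rl2, Il1rl1, Il18r1 and Il18rap in this order. Its outer members, Il1r2 and Il18rap, fell by 8.02 and 7.76 on the log2 scale and Il18r1 by 5.96, while Il1rl2, between Il1r1 and Il1rl1, rose. The nearest coding gene tested before the cluster, Map4k4, rose to 6335 with DKK1, against 1643 in control, and the nearest one after it, Mfsd9, fell to 8.09 with DKK1, against 47.6 in control. The ligand cluster covers 198 kb of chromosome 2 (24153161 to 24351494, plus strand) and holds Il36b, Il36g, Il36a, Il36rn, Il1f10 and Il1rn. Of its 4 genes tested, Il36a, Il36rn and Il1rn rose and Il36g had a change of -0.23, and the nearest coding genes tested, Hnmt before and Psd4 after the cluster, had changes of -2.16 and -1.08. Il1a and Il1b together span 71.5 kb, and Ckap2l, beside Il1a, rose to 98.3 with DKK1, against 20.1 in control.

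**Figure D4:**
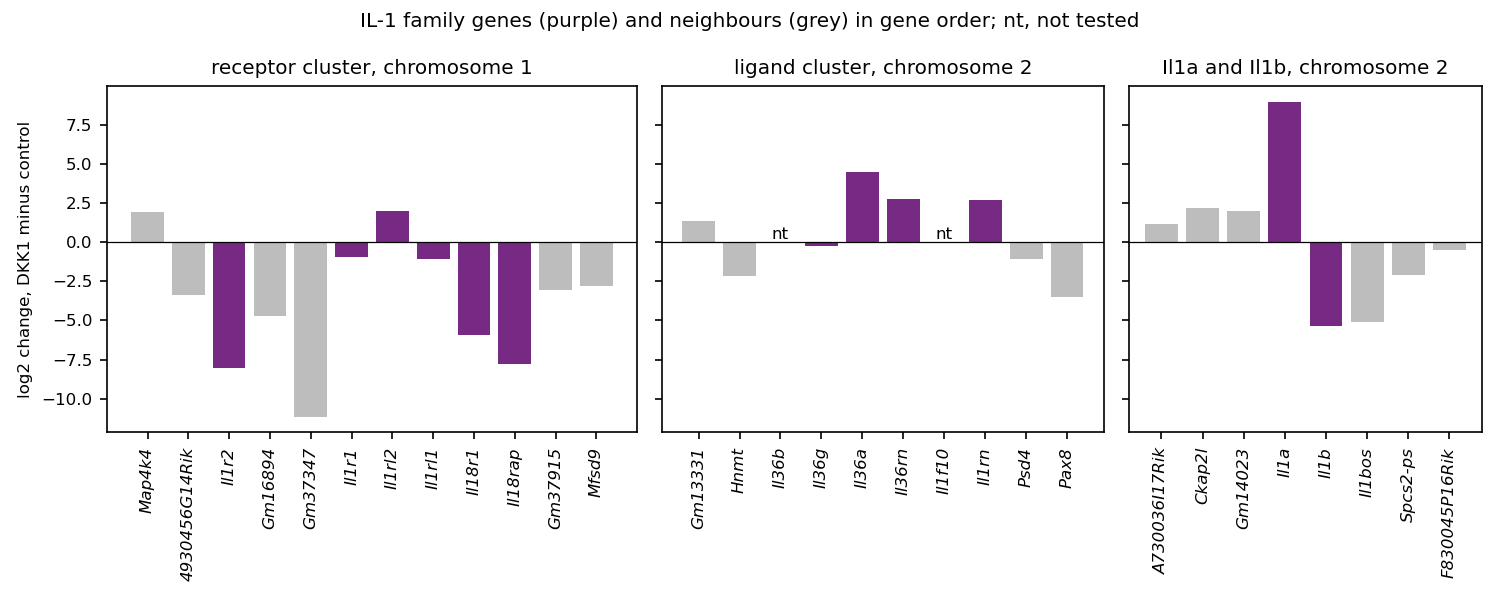
Log2 change, DKK1 minus control, of the interleukin-1 family genes (purple) and the nearest tested neighbours (grey), each panel in the order of the genes along the chromosome, with nt for genes too low to test. Bars of opposite sign stand side by side in all 3 panels, such as Il1a (8.96) beside Il1b (-5.38), and so do bars of 1 sign, such as Il18r1 (-5.96) beside Il18rap (-7.76) and Il36a (4.49) beside Il36rn (2.77).

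Genes that cut and release interleukin-1 and interleukin-18 were mostly lower. Of 20 on this list, 5 rose, 14 fell and Ctsg did not pass the test, against 35.1% called higher and 36.1% lower of all genes, and the median change was -1.79 against -0.03 over all genes. Capn1, a calcium-dependent protease (interleukin-1 alpha is cut by calpains), fell to 56.65, 42.58 and 71.04 normalized counts with DKK1, against 3504, 3483 and 3708 in control (log2 change -5.98, adjusted p = 2.12e-09). Aim2, a sensor of DNA in the cytosol, fell to 273 with DKK1, against 994.5 in control, and Gsdme, which forms pores in the cell membrane, fell to 226 with DKK1, against 1142 in control. Casp1, the protease that cuts the precursors of interleukin-1 beta and interleukin-18, had 334, 336.5 and 371 with DKK1, against 690, 652 and 684 in control, 1.95-fold lower (adjusted p = 4.68e-06). Its adaptor Pycard fell to 20.1 with DKK1, against 92.3 in control, and the pore-forming Gsdmd to 343.5 with DKK1, against 1245 in control. Nlrp3, a sensor that activates caspase-1, had a smaller fall, to 3046 with DKK1, against 4233 in control (log2 change -0.50, adjusted p = 0.0076), which with equal totals was 0.03 (adjusted p = 0.79). Those that rose were Ninj1, which breaks the cell membrane in lytic death, at 4397, 4621 and 4208 with DKK1 against 848, 815.5 and 829 in control (adjusted p = 1.30e-09), Nlrc4, Hax1, Capn2 and Casp4. Nlrc4, another sensor that activates caspase-1, averaged 114 with DKK1 and 4.32 in control. Casp1, Pycard, Gsdmd, Nlrp3 and Nlrc4 were chosen after their values were seen.

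Genes that carry the signal of the receptors were mostly higher. Of 22, 15 rose, 5 fell and 2 (Tab1 and Rel) did not pass the test, against the same 35.1% and 36.1% of all genes, and the median change was 0.75. With equal totals 17 rose and 2 fell, beside 7098 and 4742 of all genes. Ikbkg, the regulatory subunit of the IKK complex, had 7395, 5747 and 7122 normalized counts with DKK1, against 635, 672.5 and 711 in control (log2 change 3.32, adjusted p = 3.66e-09). Nfkb2, an NF-kappaB subunit, rose to 4069 with DKK1, against 499 in control. Irak2, a kinase-like protein of the receptor complex, rose to 5964 with DKK1, against 861 in control. Irak4, the kinase that acts first in that complex, went the other way, with 184, 176 and 172 with DKK1, against 1333, 1233 and 1180 in control (log2 change -2.81, adjusted p = 3.61e-09). Myd88, the adaptor that brings Irak4 to the receptor and a gene chosen after its values were seen, fell to 959 with DKK1, against 1911 in control.

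Transcripts known to be induced by interleukin-1 in many cells, and by other inflammatory stimuli as well, were mostly higher. Of 18, 17 could be tested, of which 12 rose, 4 fell and Nfkbia did not pass the test, against 35.1% higher and 36.1% lower of all genes, and the median change was 4.29. Nfkbia, at 0.03, passed as higher with equal totals (0.56) and as lower without DKK1 library 2 (-0.14). Saa3, an acute-phase protein, had 5319, 5518 and 6001 normalized counts with DKK1, against 1.10, 0 and 0.985 in control, from 18503 reads with DKK1 and 2 in control (log2 change 11.77, adjusted p = 8.77e-10, with a size that depends on the pseudocount, at 13.43 with 0.1 and 9.04 with 10). Csf3, the neutrophil growth factor G-CSF, had 490, 944 and 488 with DKK1, against 0 in all 3 control libraries, at least 603-fold higher. Sod2, the mitochondrial superoxide dismutase, rose to 12344 with DKK1, against 158 in control, and Tnfaip3, an inhibitor of NF-kappaB signalling, rose to 9895 with DKK1, against 499.8 in control. The 4 that fell were Ptgs2, Lcn2, Bcl3 and Nfkbiz. Nfkbiz only just passed (log2 change -0.55, adjusted p = 0.0476), with 2181, 4014 and 2196 normalized counts with DKK1, against 3744, 4023 and 3969 in control, so that the groups overlapped. Its call was lost with either other pseudocount, with no filter, with equal totals (-0.01, adjusted p = 0.949) and without any library other than DKK1 library 2 (adjusted p = 0.0832 to 0.147). Ptgs2, which makes prostaglandins, averaged 3868 with DKK1 and 10612 in control, and Lcn2, a granule protein of neutrophils, averaged 4001 with DKK1 and 14659 in control; both were chosen after their values were seen.

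Genes known to control the Il1a and Il1b transcripts were mostly lower. Of 12, 2 rose (Atf3 and Elavl1), 8 fell and 2 (Irf4 and Irf8) did not pass the test, against 35.1% higher and 36.1% lower of all genes, and the median change was -1.26. Irf4, at -1.82, passed without DKK1 library 1 (-2.93, adjusted p = 0.00769). Fos, a subunit of AP-1, had 144, 181 and 104.5 normalized counts with DKK1, against 38183, 37893 and 38126 in control (log2 change -8.08, adjusted p = 4.30e-10). Zfp36, which binds AU-rich pentamers and speeds decay, had 1488, 1941 and 1401 with DKK1, against 39794, 39139 and 39974 in control (log2 change -4.64, adjusted p = 8.29e-10). Its relative Zfp36l1 fell to 19.96 with DKK1, against 848.5 in control. Spi1, the ETS factor PU.1 that acts on the Il1b promoter, fell to 1495 with DKK1, against 5522 in control. Whether these levels bear on Il1a or Il1b was not tested.

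**Figure D5:**
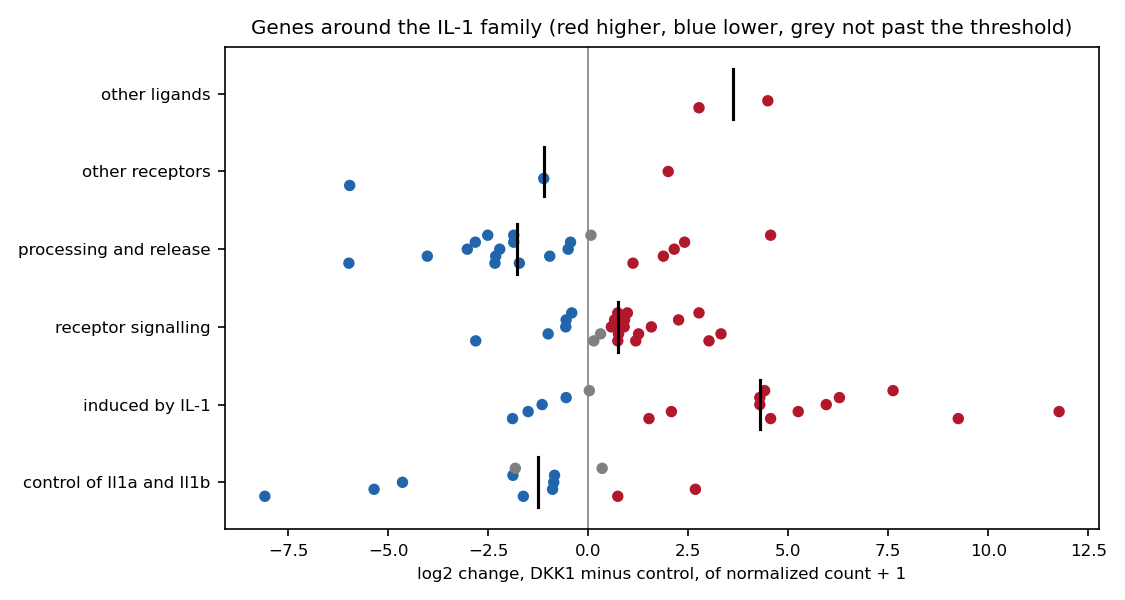
Log2 change, DKK1 minus control, of each tested gene in the 6 lists around the family, coloured by call (red higher, blue lower, grey not past an adjusted p of 0.05), with a bar at the median of each list. The medians of the release list (-1.79) and of the list of genes that control Il1a and Il1b (-1.26) lie below 0, and those of the receptor signalling list (0.75) and the interleukin-1 induced list (4.29) above it.

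For the 8 family transcripts with a mean of at least 100 over the 6 libraries, the genes with the most similar pattern were looked for among 6431 genes, by the root mean square difference in log2(normalized count + 1) after centring each gene. Nearest to Il1a were Il12b (0.22), Csf3 (0.23) and Eno2 (0.26), and nearest to Il1b were Lmnb1 (0.13), Itga4 (0.13) and Zfp36l1 (0.15). Il1rn lay nearest to Irak2 (0.05), Arid5b (0.06) and Optn (0.07), and Il1rap to Pabir1 (0.04), Samd9l (0.04) and Slc35a5 (0.07). Il1r2 lay nearest to Fos (0.05), Mtus1 (0.06) and Gda (0.24), and Il18rap to Slfn4 (0.11), Mmp8 (0.14) and Slfn5 (0.16). The genes nearest to the 2 transcripts that changed little lay at 0.04 for Il18bp (Hadhb, Abi1 and Entr1) and 0.03 for Il36g (Rala, Bet1l and Exoc1). This measure ran over 6 libraries in 2 groups and is a description.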

How the data were processed

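Each deposited value is a normalized count of a gene in a library, a signal that cannot be negative, per the file headers. The genome build was mm10, per the submitters' processing notes. The sources used here name no aligner, counting tool, annotation, strandedness or normalization method. Dividing each value by the worth of 1 read in its library gave whole reads (100% within 0.001 reads), called recovered reads. Another 3 columns of per-sample values were not used.

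The test was limma 3.58.1 (R 4.3.3, trend and robust empirical Bayes, two-sided) on log2(normalized count + 1), DKK1 minus control, for the 16265 genes that reached 1 normalized count in 3 or more of the 6 libraries. P-values were Benjamini-Hochberg adjusted over all of them, with a threshold of 0.05. On this scale low genes change less than they do in ratio. Folds are ratios of group means. Floors (3 reads over a group) and intervals (95%, exact Poisson) cover counting error only. Alternatives were pseudocounts of 0.1 and 10, a filter of 10 normalized counts in 3 libraries or none, scaling by median of ratios or to equal totals, a replicate block, edgeR 4.0.16 (quasi-likelihood) and DESeq2 1.42.0 on recovered reads, and leaving out each library. Its fit was also tested on simulated data.

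Gene models came from GENCODE M21, matched by gene identifier without version (91.3% of identifiers), and levels per kb used the longest coding transcript. The 10 genes were chosen, and the lists fixed, with earlier results of these data known. Besides the 10, Cd101 and Ly6g, up to 4 tested genes of smallest adjusted p were to be named per list, with the 3 nearest genes by pattern. Any other gene named was chosen after its values were seen.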

Additional observations from a re-analysis of the deposited data

How the results depend on the processing

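Of the 10 family transcripts, Il1a, Il1b, Il1rn, Il1r2, Il1rap, Il18 and Il18rap kept their direction and their call under all 15 alternatives. With libraries scaled to equal totals the count of higher transcripts was 4 instead of 2, as Il18bp reversed to 0.39 and Il36g to 0.30 on the log2 scale. Leaving out DKK1 library 2 brought Il1r1 past the threshold, so 7 instead of 6 transcripts were lower. With no length correction the ratio of Il1rn to the agonists was 15 with DKK1 and 0.261 in control. With the sample number as a replicate block, 2 transcripts were higher and 6 lower, as without it, and it changed no call among the 10. Deviations of same-numbered DKK1 and control libraries correlated at -0.00929, 0.0929 and 0.0769 over 6743 genes, against -0.139 to 0.0716 between libraries of different numbers. With 3 libraries per group, these values cannot show whether the number pairs the libraries. Over all genes, edgeR on recovered reads called 5503 higher and 5897 lower, and DESeq2 called 5138 higher and 5541 lower, against 5709 and 5873 by limma. Among other genes named, Nlrp3 turned to 0.03 and Camp to 0.49 with equal totals. Leaving out each library in turn gave -0.12 to 0.01 for Camp, -0.40 to 0.42 for Ctsg, -0.08 to 0.68 for Irf8 and -0.14 to 0.11 for Nfkbia, which was also -0.04 with median-of-ratios scaling and -0.02 with edgeR and DESeq2. Il1r1 had too few reads to enter under the filter of 10 normalized counts. Depth limits Il18 with DKK1 (0 reads), Il1a in control (9 reads) and Il1r1 in both groups (11 reads with DKK1 and 23 in control).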
